A study of Mus musculus with 6 samples.

Results

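The 10 genes described here encode transcription factors of the AP-1 and BATF group. They were taken by symbol from the deposited read counts of mouse T cells and are Jun, Junb and Jund (the Jun family), Fos, Fosl1 and Fosl2 (the Fos family), Batf and Batf3 (the BATF family), Maff (a small Maf protein) and Atf3. They are 10 of the 55401 genes counted, and 9 of them had enough reads to be tested among 14082 genes. Atf3 did not.

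The T cells were grown either in medium with the supernatant of untreated macrophages (control, 3 samples) or in medium with the supernatant of macrophages activated by NF-L (3 samples), the neurofilament light chain, a structural protein of axons. The question the design puts to these genes is whether soluble products of NF-L-activated macrophages alter their RNA level. By the deposited design text, in both groups the T cells came from mouse spleen by positive selection on CD8a, the macrophages were raised from CD11b-selected spleen cells over 7 days in 50 ng/mL M-CSF (a macrophage growth factor), and the filtered supernatant was used at 50% in RPMI-1640 with 2% serum. The NF-L macrophages had received NF-L at 5 µg/mL for 24 hours, described as prepared by freezing and thawing a lysate of sciatic nerve, so other nerve components may have been present. A different dose stands in the methods of the study for its co-cultures, and which one applies to these samples is uncertain. For its mouse experiments the study lists a purchased NF-L protein, with nerve lysate as a separate treatment. The makeup of the NF-L used here is therefore uncertain as well. The labels give no strain, age or sex of the mice, and they do not say whether the 3 samples of a group came from separate animals or cultures. The p-values below therefore measure only the spread between these samples, which may be technical.

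AP-1 is a dimer of basic leucine zipper proteins that binds short palindromic DNA sites. Jun proteins pair with each other or with Fos proteins, whereas Fos proteins cannot pair with themselves, and BATF proteins lack a transactivation domain and pair with Jun proteins, often next to IRF4 or IRF8. In T cells, signals from the antigen receptor reach AP-1 through MAP kinases, and AP-1 works with NFAT on cytokine genes. Small Maf proteins such as MAFF also lack a transactivation domain and pair with larger bZIP factors.

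Total counts ran from 15843045 to 24639756 per sample, and the scaling factors from 0.994 to 1.01. No pair of samples agreed within sampling noise. Mitochondrial genes took 1.65 to 1.77% of counts in controls and 1.54 to 1.60% in NF-L samples, and the part of this gap in the results below was not tested. Levels are given in CPM, the reads of a gene scaled to a common library size. T cell genes were uneven in level. Medians over samples were 1641 CPM for Thy1, 357 CPM for Trbc1 and 189 CPM for Zap70. Trbc2, Cd3e and Cd247 were at 57.0, 53.6 and 44.8 CPM. Low medians were found for Cd3g (7.63 CPM), Lck (4.43 CPM), Cd3d (4.15 CPM) and Trac (1.59 CPM). The defining genes of CD8+ cells were low, at 3.92 CPM for Cd8a and 1.28 CPM for Cd8b1, below the 25.7 CPM of Cd4, and Cd2 and Cd5 had 0 counts in all samples. Of the counts of T cell receptor beta variable genes, 99.87% to 100% fell on Trbv1 in each sample. These values go against the stated selection of CD8+ cells from spleen, so the origin and identity of the cells are in doubt. They are called T cells here, as in the sample labels.

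Of the 9 tested members, 3 were higher with NF-L supernatant (Junb, Batf3 and Maff), 1 was lower (Fosl2) and 5 did not pass the test (Jun, Jund, Fos, Fosl1 and Batf), at an adjusted p under 0.05 in edgeR (quasi-likelihood test, Benjamini-Hochberg). These 4 are 44.4% of the tested members. Because the members were chosen with earlier results of these data known, this share is a description and not a test. Over all tested genes 7.00% passed, 3.47% higher and 3.53% lower. The 2 groups did not overlap for 4 members, against 22.7% of all tested genes. The median log2 fold change of the tested members was 0.03 and the median of its absolute value 0.22, beside 0.09 for the absolute value over all tested genes. In these bulk samples, fewer cells expressing a gene and less RNA of that gene per cell cannot be told apart.

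**Figure D1:**
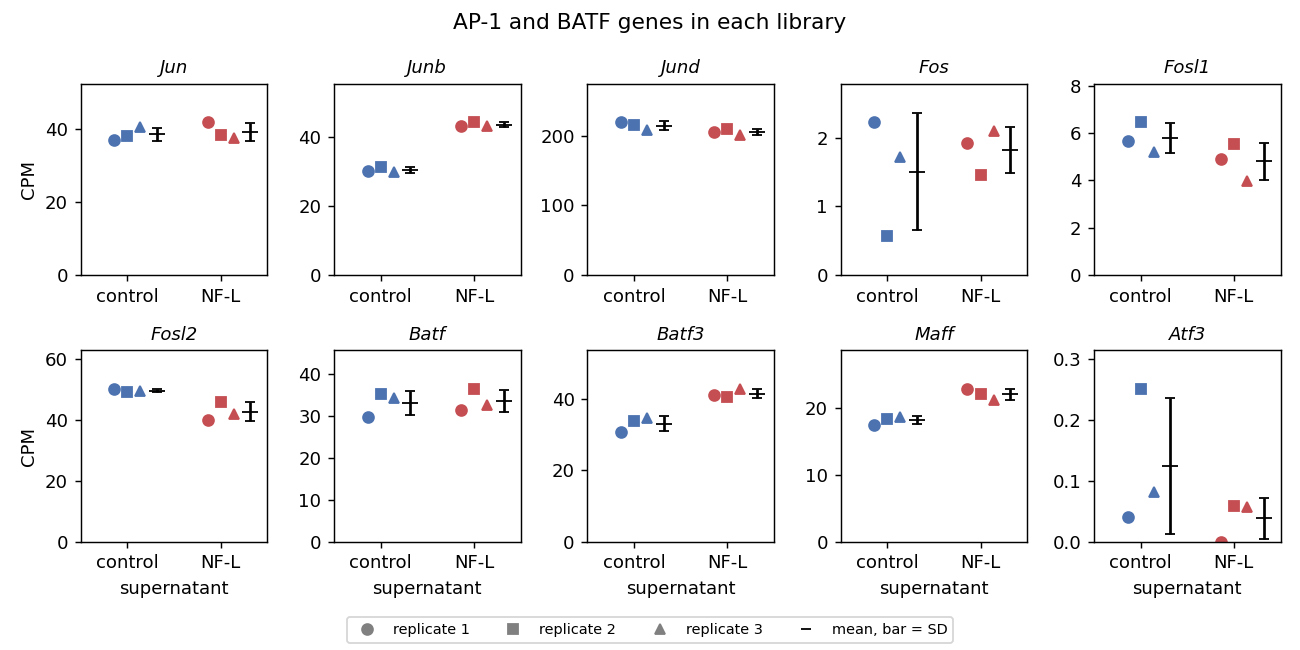
Level of each AP-1 and BATF gene (CPM, linear axis from 0) in the 3 control and 3 NF-L samples. Each point is 1 sample, and the bar beside the points is the mean with its SD. For Junb, Batf3 and Maff the NF-L points all lie above the control points, and for Fosl2 they all lie below.

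**Figure D2:**
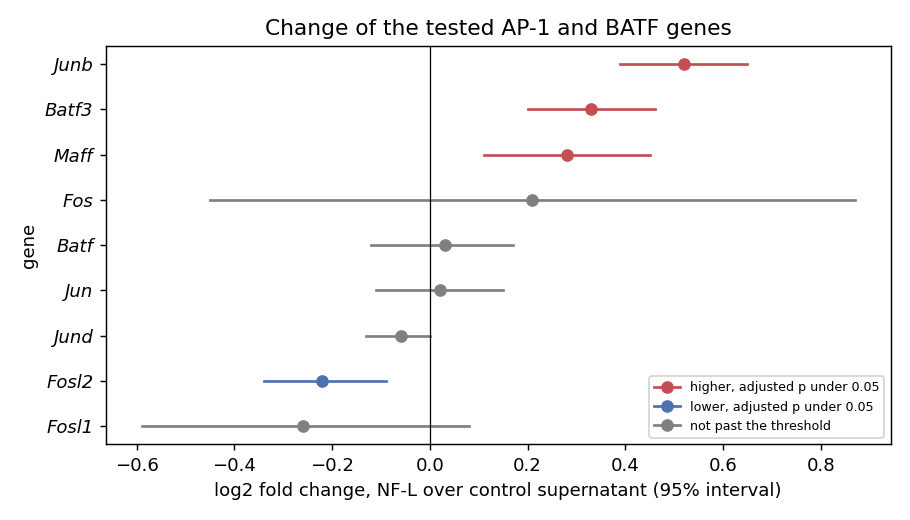
Log2 fold change of the 9 tested genes, NF-L over control supernatant, with the 95% interval from edgeR. Junb (0.52), Batf3 (0.33) and Maff (0.28) lie above 0, Fosl2 (-0.22) lies below, and the interval of Fos runs from -0.45 to 0.87.

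Promoter sequence of the 4 members that passed the test, and of Jun for contrast, is given from RefSeq on build GRCm38.p6, because Jun and other AP-1 genes are known for sites in their own promoters that AP-1 and CREB family proteins bind. RefSeq entries were matched for 9 of the 10 members, with 3 start sites for Maff. Only the second Maff start, which holds TGACGTCA, is printed. Counts per gene do not show which of its starts these cells use. Each line holds the 150 bases before a start site, read 5′ to 3′ on the gene's strand. Capitals mark matches to the CRE-like motif TGACNTCA or its core TGACGT, and the AP-1 motif TGANTCA and the kB motif GGGNNTTCC were searched as well. Junb lies on the minus strand at chr8:84978749-84978898, Batf3 on the plus strand at chr1:191098264-191098413, Maff (second start) on the plus strand at chr15:79347370-79347519, Fosl2 on the plus strand at chr5:32136322-32136471 and Jun on the minus strand at chr4:95052223-95052372.
Junb: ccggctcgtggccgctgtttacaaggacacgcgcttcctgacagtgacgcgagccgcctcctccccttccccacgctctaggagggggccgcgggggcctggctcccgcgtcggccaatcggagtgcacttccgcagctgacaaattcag
Batf3: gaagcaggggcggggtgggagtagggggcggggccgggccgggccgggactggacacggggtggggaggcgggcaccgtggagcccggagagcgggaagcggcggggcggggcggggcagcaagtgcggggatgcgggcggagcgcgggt
Maff: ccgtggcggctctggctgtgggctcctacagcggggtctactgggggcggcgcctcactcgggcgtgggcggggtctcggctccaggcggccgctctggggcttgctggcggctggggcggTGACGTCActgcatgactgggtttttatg
Fosl2: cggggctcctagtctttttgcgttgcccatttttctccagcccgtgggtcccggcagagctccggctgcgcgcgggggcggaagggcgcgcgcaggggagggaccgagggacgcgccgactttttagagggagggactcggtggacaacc
Jun: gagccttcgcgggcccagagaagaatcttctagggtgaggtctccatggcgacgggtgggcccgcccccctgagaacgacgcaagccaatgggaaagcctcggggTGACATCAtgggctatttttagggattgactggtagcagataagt

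Both strands of the 250 bases before each start were searched. Of the 32851 mouse promoters in the table, 6.75% held the AP-1 motif, 7.49% the CRE-like motif, 6.47% the core TGACGT and 4.98% the kB motif. The core is part of some CRE-like matches. The CRE-like motif was present before Jun (TGACATCA, 45 to 38 bases upstream), the second start of Maff (TGACGTCA, 29 to 22 bases) and the third start of Maff (TGACATCA, 45 to 38 bases). The core alone was present before Fos (66 to 61 bases), Batf (98 to 93 bases) and Atf3 (8 to 3 bases). Neither was found in the windows of Junb, Batf3, Fosl2, Jund or the first start of Maff. The AP-1 and kB motifs, in the spellings searched, were found in 0 of the 11 member windows. Other spellings of these sites, including longer kB sites, were not searched.

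Among the Jun family, Junb rose. JUNB is a weaker activator than JUN and is the partner with which BATF is often found in T cells. Junb (ENSMUSG00000052837.7) stood at 30.2, 31.4 and 29.8 CPM in control replicates 1, 2 and 3, and at 43.3, 44.5 and 43.3 CPM in NF-L replicates 1, 2 and 3. All NF-L samples were above all controls, and the SDs (0.850 and 0.684 CPM, n = 3 each) were small beside the gap. The change was 1.44-fold (log2 fold change 0.52 ± 0.0647 SE, 95% interval 0.39 to 0.65, edgeR adjusted p = 4.5e-08), rank 38 by p among all tested genes. It passed the test in 15 of 15 alternative settings, at 0.50 to 0.54.

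Jun itself, the family's strongest activator, stood at 36.9, 38.2 and 40.5 CPM in controls and at 42.0, 38.3 and 37.4 CPM with NF-L. The groups overlapped, with means of 38.6 ± 1.82 and 39.2 ± 2.42 CPM (SD, n = 3). Its log2 fold change was 0.02, with a 95% interval of -0.11 to 0.15 (edgeR adjusted p = 0.903). Jund, usually the most steadily expressed Jun gene, stood at 219.7, 216 and 208 CPM in controls and at 206, 209 and 200.3 CPM with NF-L. These values overlapped as well, with a log2 fold change of -0.06 and an interval of -0.13 to 0.00 (edgeR adjusted p = 0.283).

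Per kilobase of exon, Jund had by far the highest level of the family (129 CPM per kb in controls), with Junb (13.3) and Jun (12.1) close to each other. Junb therefore made up 8.61 ± 0.207% of the family's RNA in controls and 12.3 ± 0.181% with NF-L. Jund made up 83.5 ± 0.639% and 79.7 ± 0.299%, and the groups did not overlap for either gene (exact permutation p = 0.1, the lowest value reachable with 3 samples a group). The shares of a family sum to a fixed total, so these 2 results are not separate. The level of Jund itself overlapped between the groups and did not pass.

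In the BATF family, Batf3 rose and Batf did not pass the test. BATF3 is best known for the development of cross-presenting dendritic cells and is also made by activated T cells. Batf3 (ENSMUSG00000026630.9) stood at 30.6, 33.8 and 34.8 CPM in controls and at 41.2, 40.5 and 42.9 CPM with NF-L. Every NF-L sample was above every control, and the means were 33.1 ± 2.15 and 41.5 ± 1.24 CPM (SD, n = 3). The change was 1.26-fold (log2 fold change 0.33 ± 0.0662 SE, 95% interval 0.20 to 0.46, edgeR adjusted p = 4.9e-04) and passed in 15 of 15 alternative settings, at 0.28 to 0.37.

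Batf, the family member needed for several effector T cell programmes, stood at 29.7, 35.0 and 34.1 CPM in controls and at 31.3, 36.4 and 32.5 CPM with NF-L. The groups overlapped throughout (log2 fold change 0.03, 95% interval -0.12 to 0.17, edgeR adjusted p = 0.901). Batf2 had 0 counts in all samples. The share of Batf3 in the family's RNA per kilobase was 46.9 ± 0.890% in controls and 52.3 ± 2.44% with NF-L, and the groups did not overlap (exact permutation p = 0.1). Markers of dendritic cells, which also express Batf3, were low. The highest was Itgax, with means of 1.88 CPM in controls and 1.47 CPM with NF-L. Flt3 and Siglech had 0 counts, Clec9a reached 0.340 CPM and Xcr1 0.932 CPM in the highest sample, and the 6 markers summed to 1.87 to 2.95 CPM in controls and 1.47 to 2.86 CPM with NF-L.

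In the Fos family, Fosl2 fell. FOSL2 (FRA-2) lacks the strong transactivation domain of FOS. Fosl2 (ENSMUSG00000029135.10) stood at 50.3, 49.1 and 49.5 CPM in controls and at 40.1, 46.0 and 42.0 CPM with NF-L. All NF-L samples were below all controls, though NF-L replicate 2 was nearer to them than the others. The change was 0.861-fold (log2 fold change -0.22 ± 0.0601 SE, 95% interval -0.34 to -0.09, edgeR adjusted p = 0.0172). It passed in 11 of 15 alternative settings and was lost without control replicate 1 (-0.20, adjusted p = 0.0837), without NF-L replicate 1 (-0.17, edgeR adjusted p = 0.131), without NF-L replicate 3 (-0.20, edgeR adjusted p = 0.105) and with trends of GC content and length removed (-0.18, edgeR adjusted p = 0.0564).

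Fosl1, which encodes FRA-1, was scarcer at 5.65, 6.46 and 5.20 CPM in controls and 4.91, 5.52 and 3.96 CPM with NF-L. Its groups overlapped, and the interval of its log2 fold change, -0.59 to 0.08 around -0.26, includes the value of Fosl2 (edgeR adjusted p = 0.448). Fos, the immediate early gene of the family, had 55, 9 and 42 counts in controls and 31, 25 and 37 with NF-L. Control replicate 2 held the 9 counts, the groups overlapped, and the 95% interval of the log2 fold change ran from -0.45 to 0.87 around 0.21 (edgeR adjusted p = 0.801). Without that sample the value was -0.11.

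**Figure D3:**
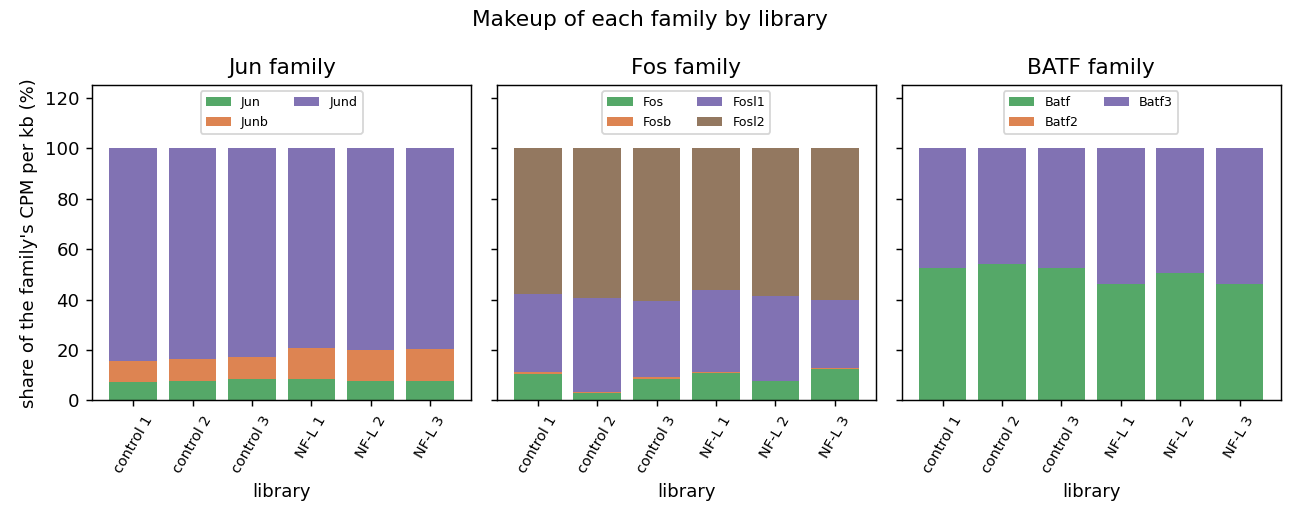
Share of each gene in its family's summed CPM per kb of exon (percent, stacked to 100) in each of the 6 samples. The band of Junb is wider in the NF-L samples, with a mean of 12.3% against 8.61%, and the band of Batf3 is also wider, while the Fos family varies between samples, with Fosl2 at a mean of 59.3% in controls and 58.3% with NF-L.

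Maff (ENSMUSG00000042622.14), an interaction partner of NRF2 and other factors, stood at 17.5, 18.3 and 18.7 CPM in controls and at 22.9, 22.1 and 21.2 CPM with NF-L. The NF-L samples were all higher, with means of 18.2 ± 0.609 and 22.1 ± 0.870 CPM (SD, n = 3). The change was 1.21-fold (log2 fold change 0.28 ± 0.0855 SE, 95% interval 0.11 to 0.45, edgeR adjusted p = 0.0335). It kept its direction but passed in only 7 of 15 alternative settings, and it was lost with the DESeq2 test (adjusted p = 0.0573), with no filter on low counts (edgeR adjusted p = 0.0589), with libraries thinned to the smallest (edgeR adjusted p = 0.0513) and without any of control replicates 1 and 3 and NF-L replicates 1, 2 and 3 (edgeR adjusted p = 0.0502 to 0.138). Atf3, a stress-induced bZIP gene, had 1, 4 and 2 counts in controls and 0, 1 and 1 with NF-L. Nearly all of these are at or under a floor of 3 counts, so no change of Atf3 could be measured.

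**Figure D4:**
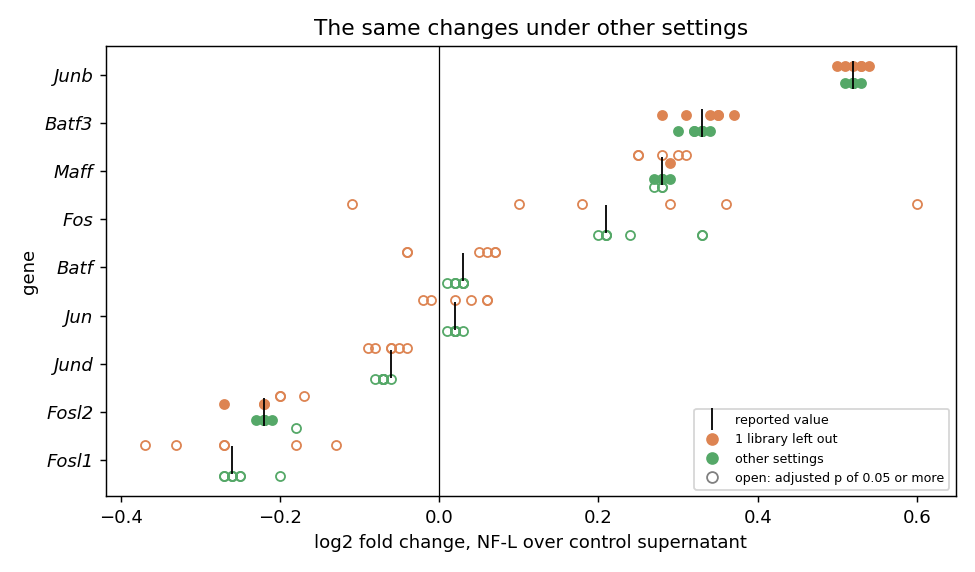
Log2 fold change of the 9 tested genes (NF-L over control) as reported (black bar), with 1 sample left out (orange) and under other settings (green); filled points have an adjusted p under 0.05 and open points do not. The points of Junb and Batf3 are all filled, those of Maff and Fosl2 are mixed, and those of Fos spread from -0.11 to 0.60.

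Ordered by level per kilobase of exon, Jund was first in controls (129 CPM per kb), then Batf (23.4), Batf3 (20.7), Junb (13.3), Jun (12.1), Maff (7.01), Fosl2 (5.13), Fosl1 (2.84) and Fos (0.640). With NF-L, Batf3 (26.0 CPM per kb) stood before Batf (23.8), and the order of the others did not change. Only Batf and Batf3 had overlapping sample values among neighbours in this order, in both groups.

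Ratios within a sample, in which scaling cancels, compared 5 pairs of members. The log2 ratio of Junb to Jund rose from -2.81 to -2.23, a difference of 0.58, and that of Batf3 to Batf from 0.01 to 0.32, a difference of 0.31. The ratio of Jun to Junb moved by -0.49 and that of Fosl2 to Junb by -0.74. In these 4 ratios the groups did not overlap, but the exact two-sided permutation test reaches only p = 0.1 (0.125 after adjustment over the 5). All of the 4 but Batf3 to Batf contain Junb. They restate the changes of single members given above and are not separate support. The ratio of Fosl2 to Fosl1 differed by 0.06 and overlapped (exact permutation p = 0.7).

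Some members share sequence with genes on the opposite strand, and whether reads were counted by strand is not given in the sources used here, so reads of such pairs cannot be told apart. Prdx2 overlaps exons of Junb and was at 55.8 CPM in controls and 56.0 CPM with NF-L (log2 fold change 0.01, edgeR adjusted p = 0.977). Junos, antisense to Jun, was at 1.49 and 2.09 CPM (0.49, edgeR adjusted p = 0.391), and Ccdc85b, which overlaps Fosl1, at 17.5 and 17.4 CPM (-0.01, edgeR adjusted p = 0.986). Batf, Batf3, Fos, Fosl2 and Maff overlap no annotated gene in GENCODE M21.

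Among the genes whose log2 CPM followed Junb most closely over the 6 samples were Nfkb2 (Pearson r = 0.9985), Tnfrsf11b (0.9971), Odc1 (0.9971) and Ppp4r3b (0.9967). They are given as a description over samples that include both groups, and 437 genes exceeded 0.9. Their log2 fold changes ran from 0.11 for Ppp4r3b to 0.72 for Nfkb2.

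Beside the members, genes of the AP-1 pathway were described from lists. These lists too were chosen with earlier results of these data known, so their counts are descriptions and not tests. Of 23 other AP-1 and partner bZIP genes, 15 were tested, 1 passed higher and 1 lower, with a median of 0.00. These 2 of 15 stand beside 7.00% of all tested genes. Creb1, which encodes a factor for CRE sites, was at 212 ± 4.04 CPM in controls and 239 ± 2.79 CPM with NF-L (log2 fold change 0.18, edgeR adjusted p = 1.2e-04). Nfil3, a repressor, was at 133.8 and 119 CPM (-0.17, edgeR adjusted p = 0.00348, and 0.0966 without control replicate 1). The most abundant per kilobase, Atf4, did not pass (0.04, edgeR adjusted p = 0.565).

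Of 12 factors that act beside BATF and AP-1, 11 were tested, 1 was higher and 5 were lower, 6 of 11 against 7.00% of all tested genes, with a median of -0.06. Relb, a subunit of NF-kB, rose from 18.2 ± 0.302 to 37.7 ± 1.24 CPM (1.05, edgeR adjusted p = 6.1e-16). The NFAT genes Nfatc2 (118 to 96.7 CPM, -0.29, edgeR adjusted p = 1.9e-06) and Nfatc1 (32.3 to 27.0 CPM, -0.26, edgeR adjusted p = 0.0179) fell. So did Ikzf1 (Ikaros, -0.22, edgeR adjusted p = 4.1e-07), Runx1 (-0.29, edgeR adjusted p = 0.0175) and Runx3 (-0.14, edgeR adjusted p = 0.00163), the most abundant of them per kilobase. Nfatc1 did not pass with thinned libraries (-0.22) or without control replicate 1 (-0.22), NF-L replicate 1 (-0.25) or NF-L replicate 3 (-0.22), with edgeR adjusted p of 0.0713 to 0.150. Runx1 did not pass without control replicate 2 (-0.23), NF-L replicate 2 (-0.25) or NF-L replicate 3 (-0.28), with edgeR adjusted p of 0.0977 to 0.128. The IRF genes whose proteins often bind next to BATF did not pass, with Irf4 at 14.9 and 16.0 CPM (0.10, edgeR adjusted p = 0.661) and Irf8 at 77.3 and 81.8 CPM (0.09, edgeR adjusted p = 0.363).

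**Figure D5:**
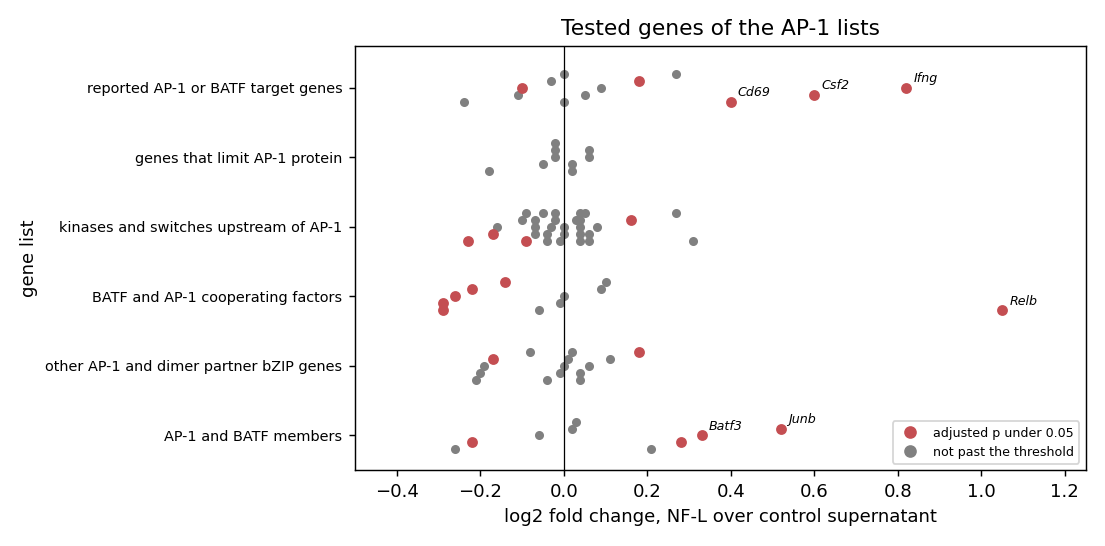
Log2 fold change (NF-L over control) of the tested genes in the member group and in the 5 pathway lists. Red points passed the adjusted threshold of 0.05. Relb (1.05) lies far to the right among the factors that act beside BATF and AP-1, the other 5 red points of that list lie to the left of 0, and no gene of the list that limits AP-1 protein is red.

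Of 35 kinases and switches upstream of AP-1, 31 were tested, with 1 higher, 3 lower and a median of -0.01. These 4 of 31 stand beside 7.00% of all tested genes (3.47% higher, 3.53% lower). Map3k7 (TAK1), a kinase above JNK and NF-kB, was higher (0.16, edgeR adjusted p = 0.00631), and Mapk3 (ERK1, -0.23, edgeR adjusted p = 0.0148), Rasgrp1 (a Ras activator, -0.17, edgeR adjusted p = 0.00365) and Rps6ka3 (RSK2, -0.09, edgeR adjusted p = 0.0455) were lower. Map3k7 was not past the threshold without NF-L replicate 2 (0.13, edgeR adjusted p = 0.0935), nor Rasgrp1 without NF-L replicate 3 (-0.15, edgeR adjusted p = 0.0528). Mapk3 was lost without control replicate 1 (-0.22), NF-L replicate 2 (-0.20) or NF-L replicate 3 (-0.21). Rps6ka3 was lost in 7 of the 15 settings, among them those without control replicates 1 and 3 and without each NF-L replicate (-0.10 to -0.08). Mapk14 (p38), the most abundant per kilobase, had a value of -0.07 (edgeR adjusted p = 0.242). Of the 9 tested genes that limit AP-1 protein, such as the ubiquitin ligases Itch and Fbxw7, 0 passed by edgeR, DESeq2 or limma-voom and 0 had an unadjusted p under 0.05. With 7.00% of all tested genes past the threshold, a count of 0 among 9 is near the background. Nedd4, the most abundant of them per kilobase, had a value of -0.05 (edgeR adjusted p = 0.395).

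Of 30 genes reported elsewhere as AP-1 or BATF targets, 13 were tested, 4 were higher and 1 was lower, with a median of 0.05, beside 3.47% higher and 3.53% lower over all tested genes. Ifng, the effector cytokine, rose from 10.6 ± 1.92 to 19.1 ± 0.714 CPM (0.82, edgeR adjusted p = 1.2e-07) and Csf2 (GM-CSF) from 8.86 ± 0.702 to 13.4 ± 1.38 CPM (0.60, edgeR adjusted p = 3.3e-04). The activation marker Cd69 rose from 15.8 to 20.8 CPM (0.40, edgeR adjusted p = 0.00259) and Il2ra, the alpha chain of the IL-2 receptor, from 1647 to 1861 CPM (0.18, edgeR adjusted p = 1.1e-06). Vim fell (-0.10, edgeR adjusted p = 0.0326), a call lost with DESeq2 (-0.10) and without control replicate 1 (-0.05) or NF-L replicate 1 (-0.08), 2 (-0.10) or 3 (-0.11), and Lgals1 (0.00, edgeR adjusted p = 0.990) did not pass. Il2, Il21 and Il17a had 0 counts in all samples.

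Other cells could carry AP-1 RNA, so their markers were summed. The 12 macrophage markers summed to 24.6 to 27.5 CPM in controls and 19.2 to 23.5 CPM with NF-L, nearly all from Cd68 (-0.26, edgeR adjusted p = 0.0494), while C1qa, C1qb, C1qc, Cd14, Itgam and Mrc1 had 0 counts. The part of these cells in the members' values was not tested. The 6 B cell markers summed to 2.64 to 3.11 and 3.04 to 3.78 CPM, with Ms4a1 and Ighm at 0. Nearly all of this came from Cd79a (means of 1.54 CPM in controls and 1.68 CPM with NF-L) and Cd79b (1.27 and 1.70 CPM). The 5 NK cell markers summed to 459 to 482 and 441 to 460.3 CPM, mostly Eomes, which T cells also express, with Ncr1 and Klra8 at 0, and Klrb1c fell (-0.51, edgeR adjusted p = 2.4e-06). The 5 neutrophil markers summed to 3.78 to 4.91 and 4.59 to 5.40 CPM with S100a8 at 0, mostly from Mpo (means of 4.13 and 4.37 CPM). The 4 erythroid markers summed to 1.32 to 1.47 and 0.988 to 1.99 CPM with Hba-a1 and Hbb-bs at 0, mostly from Alas2 (1.27 and 1.33 CPM). Of the 13 tested T cell markers, Cd3e (-0.28, edgeR adjusted p = 5.7e-04) and Zap70 (-0.12, edgeR adjusted p = 0.0282) fell and 0 rose. Over all tested genes 3.53% passed lower and 3.47% higher, so a count of 0 higher among 13 is near the background. The part of these 2 falls in the members' values was not tested.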

How the data were processed

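Bulk RNA-seq of poly(A)-selected libraries was available for 3 control and 3 NF-L samples. The authors deposited raw read counts of 55401 genes, not normalized, with 1 column per sample (0 columns were left without a sample). The submitters' processing notes name GRCm39, R 4.2.1 and limma 3.54.2; the aligner, the counter, the annotation and any use of read strand are not given in the sources used here. Of the gene identifiers, 54349 were identical, version included, to GENCODE M21 (GRCm38), which gave exon lengths and overlaps; the version of Junb differed.

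Genes were kept by filterByExpr (minimum count 10, minimum total 15), scaled by TMM and tested with edgeR 4.0.16 (glmQLFit, glmQLFTest, Benjamini-Hochberg over 14082 genes, threshold 0.05) in R 4.3.3. CPM used the TMM-scaled totals of the genes kept. The paper names a gene set enrichment of these data, but its methods give no settings for a test of single genes, so these were chosen here. Alternatives were other scalings, filters and thresholds, DESeq2 1.42.0, limma-voom (limma 3.58.1), a replicate block, thinned counts, another pseudocount for the ratios and each sample left out; offsets for GC content and length were added after the data were seen. The fits were also run on simulated counts with the same spread beyond counting error for every gene. That setting is simpler than the real counts, and its outcome is not used here. The members and the lists (other bZIP genes, cooperating factors, kinases, genes limiting AP-1 protein, targets, cell markers) were chosen with earlier results of these data known. Named genes were the members, up to 6 genes past the threshold by size of change and the most abundant gene of each pathway list, and the 5 genes most like Junb. Some genes this rule or the lists hold are not reported here by name, but list counts and sums include them. Figures were drawn with matplotlib 3.10.9. Floors and intervals cover counting error or the spread between samples only.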

Additional observations from a re-analysis of the deposited data

How the results depend on the processing

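Junb and Batf3 passed in all 15 alternative settings. Of 986 genes past the threshold, 489 were higher and 497 lower; with library size alone the split was 372 and 600, with the same 4 members past. With 1 sample left out, the counts ran from 508 to 966 genes (250 to 514 higher, 258 to 452 lower), 2 to 4 members (0 to 1 lower), 11 to 17 of the pathway list genes (17 as reported), 1 to 2 other bZIP genes and 1 to 4 kinases, with fewer samples in each fit. The count of 508 came without NF-L replicate 3, and 2 members remained past without control replicate 1, NF-L replicate 1 or NF-L replicate 3. Asking for a log2 change of 1 or more in size left 31 genes, an adjusted p under 0.01 left 2 members, and removing GC and length trends left 0 members lower (Fosl2 at -0.18); the cause was not tested. Values that did not pass changed sign with 1 sample left out, over -0.02 to 0.06 for Jun, -0.11 to 0.60 for Fos, -0.04 to 0.07 for Batf, -0.03 to 0.04 for Lgals1 and -0.06 to 0.13 for the ratio of Fosl2 to Fosl1. Samples of the same replicate number hardly deviated together (correlations 0.00845 to 0.0194), though each sample correlated best with its own number. These small values cannot settle whether such samples were prepared together. With the replicate block 1049 genes and the same 4 members passed (Junb 0.52, edgeR adjusted p = 3.0e-08). Leaving 1 library out keeps 2 samples in that group. Depth limits Atf3.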
